A study of Mus musculus with 8 samples.

Results

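The tumour suppressor p53 (gene Trp53) and 8 of its direct transcriptional targets, Mdm2, Cdkn1a, Ccng1, Bax, Bbc3, Pmaip1, Phlda3 and Trp53inp1, were followed in the mRNA of mouse hepatoma cells depleted of KAP1. These 9 genes were taken by name from a table of 21915 Ensembl genes, in which all 9 were present and all 9 passed the filter on low counts that left 14142 genes for testing. The cells were Hepa 1-6 (labelled Hepa 1.6), a hepatoma line, in 2 samples that received an shRNA against Kap1 (Kap1 KD) and 2 control samples. The labels describe the control as a plasmid with a control shRNA, while the methods name an empty pLKO lentiviral vector. Both groups were transduced 5 days before collection, and the methods state that transduced cells were selected with puromycin, a treatment that the controls therefore shared. The methods describe selection of the infected cells and no cloning step. No source states that the 2 samples of a group came from separate cultures, so the spread between them may be technical. Small RNA libraries of the same line and of primary hepatocytes list tRNA and snoRNA sequences and hold none of these genes.

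p53 is a transcription factor that is kept scarce in unstressed cells by MDM2, a ubiquitin ligase that binds it and marks it for degradation, and Mdm2 is itself a p53 target, so that the pair forms a feedback loop. KAP1 is known as a binding partner of MDM2 that aids the repression of p53. When p53 is active it binds paired decamer elements near its targets, whose products halt the cell cycle, trigger apoptosis or restrain p53 again. The abundance of p53 is set largely at the protein, which these libraries do not measure.

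Elements of this kind were looked for in the mm9 genome, within 3000 bases on either side of the annotated 5′ end of each gene, since direct targets are bound at such elements. A site was counted where 2 adjacent decamers matched the p53 consensus element at 18 or more of 20 positions with the C and G of both cores intact. The consensus reads the same on both strands. Such a site was found in the window of 6.41% of 14118 tested genes, and one with 19 or more matches in 1.13%. Among the 9 genes, Cdkn1a, Ccng1, Bax and Pmaip1 held at least 1 site. Those of the first 3 genes are shown on the strand of the gene, with the 4 central bases of each decamer in capitals.
Cdkn1a: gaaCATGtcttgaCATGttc
Ccng1, upstream: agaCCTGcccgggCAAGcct
Ccng1, intron: acgCAAGcccgggCTAGtct
Bax: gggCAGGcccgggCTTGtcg
The Cdkn1a site, at chr17:29227873-29227892, lies upstream of the gene, centred 41 bases before its most upstream annotated start, and matched at 19 positions. The upstream Ccng1 site, at chr11:40568964-40568983 on the minus strand, lies 161 bases before the 5′ end, and the intronic one, at chr11:40568438-40568457, lies 365 bases after it. Both also matched at 19 positions. The Bax site, at chr7:52721944-52721963 on the minus strand, lies in an exon of one transcript outside its coding sequence and matched at 18. The other 5 genes held no such run of letters in these windows, which is no statement on p53 binding.

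The total was between 41566888 and 53605115 counts per library, and each of the 9 genes had between 403 and 22910 counts in every library. Levels are given in CPM, the usual scaling of counts by library size, here with TMM factors. Trim28, the gene of KAP1, had 456 and 575 CPM in the controls and 106 and 78.9 in the Kap1 KD samples. The libraries separated first by replicate number, a number 2 that the labels give to 1 sample of each group and that was taken as 1 where absent. The first principal component, with 75.8% of the variance over the tested genes, separated the numbers. The change of each gene is therefore also given as the log2 ratio of Kap1 KD over control within each replicate number, called a pair, on CPM plus 0.1. Of 10 hepatocyte and hepatoma markers, 8 had at least 1 CPM in every library, and Apoa1 and Ttr did not. The 10 markers summed to 4974 and 5746 CPM in the controls and 4497 and 5101 in Kap1 KD samples. Of the 9 that were tested, 5 had both Kap1 KD libraries below both controls, against 10.6% of all tested genes. Alb, at 1580 and 1037 CPM in the controls, had 975 and 441 in the Kap1 KD samples. Krt8 and Krt18 were higher in Kap1 KD in both pairs, with Krt8 at 1057 and 1619 CPM against 1198 and 1749, and Krt18 at 1427 and 2011 against 1557 and 2215. Of 12 listed markers of leukocytes, endothelium, fibroblasts and cholangiocytes, 11 were matched and 3, Cd68, Krt7 and Sox9, had at least 1 CPM in every library. The 11 summed to 128 and 82.1 CPM in the controls and 103 and 70.4 in the Kap1 KD samples. No marker of either list was at 0 in every library. In bulk samples, fewer cells of a type and less RNA per cell cannot be told apart. The part of these markers in the values of the p53 genes was not tested.

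Across the 9 genes, Cdkn1a, Bbc3 and Phlda3 were the highest in Kap1 KD relative to control, at about 1.5-fold, followed by Ccng1 at 1.32-fold, while Mdm2, the negative regulator, was at 1.01-fold. In edgeR's quasi-likelihood test without a replicate term, 0 of the 9 genes reached 1.5-fold with an adjusted p under 0.05, the thresholds of the study, and the same test called 0% of the 14142 tested genes, Trim28 included. None of the 9 had an unadjusted p under 0.05, against 185 of all tested genes, and DESeq2 without a replicate term called 0 of the 9 and 3 genes in all (0.0137% of the 21915 to which it gave an adjusted p). The adjusted p was 0.9999 for each of the 9 in edgeR. The study, with DESeq2 at these thresholds, reports both upregulated and downregulated genes, more than either of these fits called. The smallest p that exact permutation allows with 2 samples a group is 0.333 (two-sided). The calls differed once the replicate number entered the fit as a block, although no label ties same-numbered samples to each other. With the block edgeR called 4.46% of tested genes, 2.06% as higher, and among the latter were 2 of the 9, Cdkn1a and Bbc3. That fit takes its spread from all tested genes and does not measure each gene's own spread between the pairs. With an adjusted p alone and the block, a setting chosen after seeing the data, 6 of the 9 passed as higher (all but Mdm2, Pmaip1 and Trp53inp1), as did 10.1% of tested genes, and none as lower, as did 11.5%. Once DESeq2 had the block, 11718 genes kept an adjusted p, and it called 1.98% of them, 0.913% as higher, again with Cdkn1a and Bbc3. The shares from DESeq2 with and without the block thus have different denominators. With the block, DESeq2 gave Phlda3 and Trp53 adjusted p of 0.119 and 0.0615, above the threshold of 0.05. Within pairs, 7 of the 9 genes were higher in Kap1 KD both times, as were 32.8% of all tested genes, and none was lower both times, as were 38.1%. The median log2 fold change was 0.29 over the 9 genes and -0.02 over all tested genes.

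**Figure D1:**
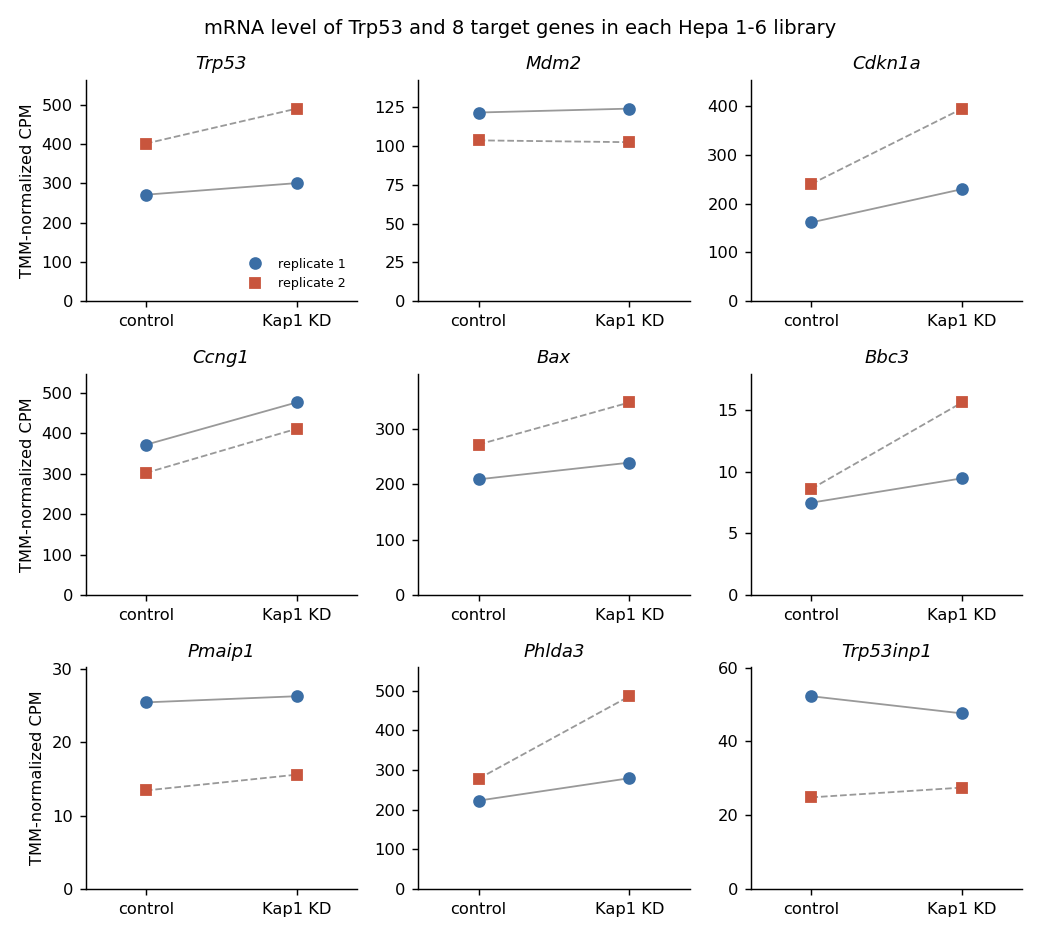
TMM-normalized CPM (y axes, from 0, each gene on its own scale) of the 9 genes in the control and Kap1 KD libraries, with lines joining the libraries of the same replicate number (circles and solid lines replicate 1, squares and dashed lines replicate 2). Both lines slope upwards for 7 genes, and the lines of Mdm2 are nearly flat, at 121 to 124 and 103 to 102 CPM.

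Trp53 encodes p53 itself and lies at chr11:69393861-69405375 of mm9, on the plus strand. It had 271 and 401 CPM in control replicates 1 and 2 and 300.4 and 489.7 in Kap1 KD replicates 1 and 2. Both replicate 2 libraries lay above both replicate 1 libraries, so that the Kap1 KD and control ranges overlapped. The pair ratios were 0.15 and 0.29 on the log2 scale. The log2 fold change between groups was 0.23 (standard error 0.33), smaller than the difference of 0.56 between the 2 control samples. A short processed copy, Trp53-ps, is annotated on chromosome 17, and reads shared with it could have been placed at either.

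Mdm2, at chr10:117125944-117147814 on the minus strand, had 121 and 103 CPM in the control and 124 and 102 in the Kap1 KD samples, replicate 1 first. The groups overlapped, and each Kap1 KD library lay within 3 CPM of the control with its number. Its pair ratios were 0.03 and -0.02 and its log2 fold change 0.01 (standard error 0.20). Its direction turned when total counts took the place of TMM scaling, at a log2 fold change of -0.035.

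Of the genes that act on the cell cycle, Cdkn1a encodes p21, an inhibitor of cyclin-dependent kinases, and lies at chr17:29227924-29237667 on the plus strand, beside the element shown above. Control replicates 1 and 2 had 162 and 240.2 CPM, and Kap1 KD replicates 1 and 2 had 229.6 and 394. Kap1 KD replicate 1 lay just below control replicate 2, so the groups overlapped, but within each number the Kap1 KD library was the higher, by 1.42-fold and 1.64-fold. The log2 fold change was 0.64 (standard error 0.35). In both pairs the ratio of Cdkn1a lay near percentile 97 of all tested genes (96.9 and 96.7). Ccng1, at chr11:40562054-40568813 on the minus strand, encodes cyclin G1, a partner of protein phosphatase 2A in the control of MDM2. It had 371 and 302 CPM in the control and 476 and 411 in the Kap1 KD samples, and here both Kap1 KD libraries lay above both controls. Its pair ratios were nearer to each other than those of Cdkn1a, Bbc3 or Phlda3, at 0.36 and 0.45 on the log2 scale, and the log2 fold change was 0.40 (standard error 0.19).

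Of the targets, 3 belong to the BCL-2 family that governs the mitochondrial path of apoptosis. Bax, which forms pores in the outer mitochondrial membrane, is at chr7:52717065-52722268 on the minus strand. Its 209 and 272 CPM in the control and 239 and 348 in the Kap1 KD samples overlapped between groups, with pair ratios of 0.19 and 0.36. The log2 fold change of 0.29 had a standard error of 0.26. Bbc3, at chr7:16894965-16903554 on the plus strand, encodes PUMA, which frees BAX by binding the anti-apoptotic members. It was the least abundant of the 9 in CPM, with 7.49 and 8.61 in the control and 9.46 and 15.6 in the Kap1 KD samples, from 403 to 730 counts. Both Kap1 KD libraries lay above both controls, and most of the difference was in the replicate 2 pair, at a log2 ratio of 0.85 against 0.33 in the replicate 1 pair. The log2 fold change was 0.64 (standard error 0.32). Pmaip1, which encodes the related NOXA, had 25.5 and 13.4 CPM in the control and 26.3 and 15.6 in the Kap1 KD samples. Its libraries were set apart by replicate number rather than by group, with replicate 1 the higher in both, and the pair ratios were 0.05 and 0.21. The log2 fold change was 0.11 (standard error 0.43).

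Phlda3, at chr1:137662696-137665713 on the plus strand, encodes a pleckstrin homology protein that keeps AKT from the membrane. It had 223 and 278 CPM in the control and 279 and 486 in the Kap1 KD samples. Both Kap1 KD libraries lay above both controls, although Kap1 KD replicate 1 did so by little. Within pairs it was higher by 1.25-fold and 1.75-fold, and the log2 fold change was 0.61 (standard error 0.32). Trp53inp1, at chr4:11083578-11101526 on the plus strand, encodes a stress protein that takes part in p53 phosphorylation and in autophagy. Its levels were 52.3 and 24.8 CPM in the control and 47.6 and 27.5 in the Kap1 KD samples, again divided by replicate number. The pair ratios had opposite signs, -0.13 and 0.15, as in 29% of all tested genes, and the log2 fold change was -0.04 (standard error 0.46).

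Thus 3 of the 9 genes, Ccng1, Bbc3 and Phlda3, had both Kap1 KD libraries above both controls, as had 9.69% of all tested genes, and none had both below, as had 10.6%. For 5 of the 9, Trp53, Mdm2, Bax, Pmaip1 and Trp53inp1, the log2 difference between replicate numbers was larger than both pair ratios in the control and in the Kap1 KD samples alike. For Cdkn1a this held in the Kap1 KD samples (0.78) but not in the controls (0.57). With 1 library left out at a time, the log2 fold change without regard to the pairs turned its direction for the 5 genes named first. It stayed positive for the other 4, between 0.20 and 0.97 for Cdkn1a, 0.28 and 0.55 for Ccng1, 0.24 and 0.96 for Bbc3 and 0.17 and 0.96 for Phlda3. The lowest of these was without Kap1 KD replicate 2 for Cdkn1a, Bbc3 and Phlda3 and without control replicate 2 for Ccng1. None of the 9 genes shares exonic bases with another annotated gene. The strand setting of the counting is not given in the sources used here.

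**Figure D2:**
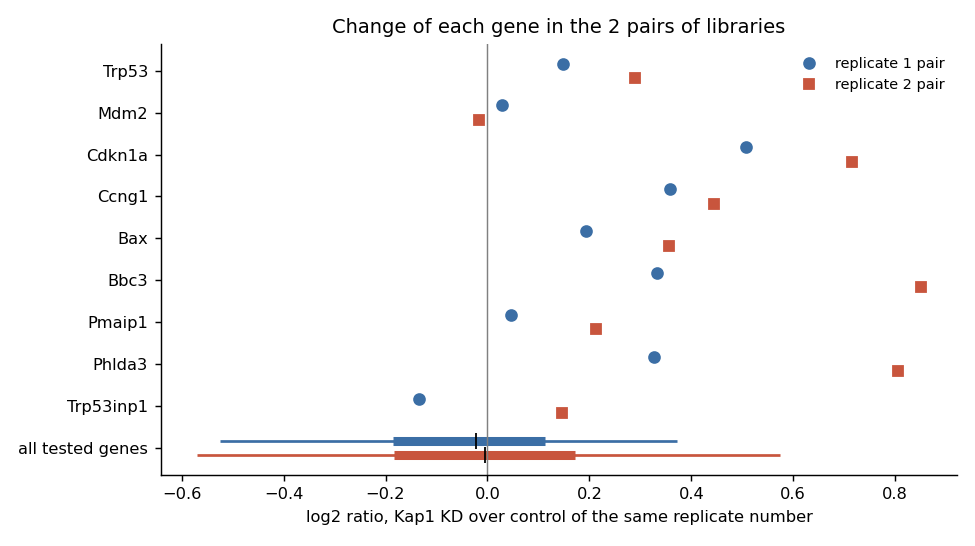
Log2 ratio of Kap1 KD over control (x axis) for each gene in the replicate 1 pair (circles) and the replicate 2 pair (squares); for all tested genes, thick bars span the quartiles, thin bars percentiles 5 to 95 and ticks the median. In the replicate 2 pair Cdkn1a, Bbc3 and Phlda3 lie beyond percentile 95 (0.57), and in the replicate 1 pair Cdkn1a does (percentile 95 at 0.37).

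Per kilobase of exon, the 9 genes spanned from about 4 to 179 RPKM in control cells. Bax (179 ± 33.1 RPKM, SD, n = 2) and Phlda3 (161 ± 25.1) were the highest, and their control ranges overlapped. Next came Ccng1 (95.8 ± 14.0), Cdkn1a (90.4 ± 25.03) and Trp53 (83.0 ± 22.7), which lay below Phlda3 without overlap and overlapped among themselves. Mdm2 (22.2 ± 2.50) stood alone, without overlap with Trp53 above or Pmaip1 below. Pmaip1 (7.35 ± 3.22), Trp53inp1 (5.95 ± 2.996) and Bbc3 (4.01 ± 0.39) were the lowest and overlapped in turn. Bax and Phlda3 lay at percentiles 97.4 and 97.0 of the tested genes in control level, and Trp53 at 93.7, while Bbc3 lay at 43.0. In Kap1 KD cells Phlda3 (246 ± 93.9) and Bax (219 ± 57.4) exchanged places with overlapping ranges, and so did Cdkn1a (140.4 ± 52.4) and Ccng1 (126 ± 13.1), and Bbc3 (6.24 ± 2.16) and Trp53inp1 (5.80 ± 2.20).

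**Figure D3:**
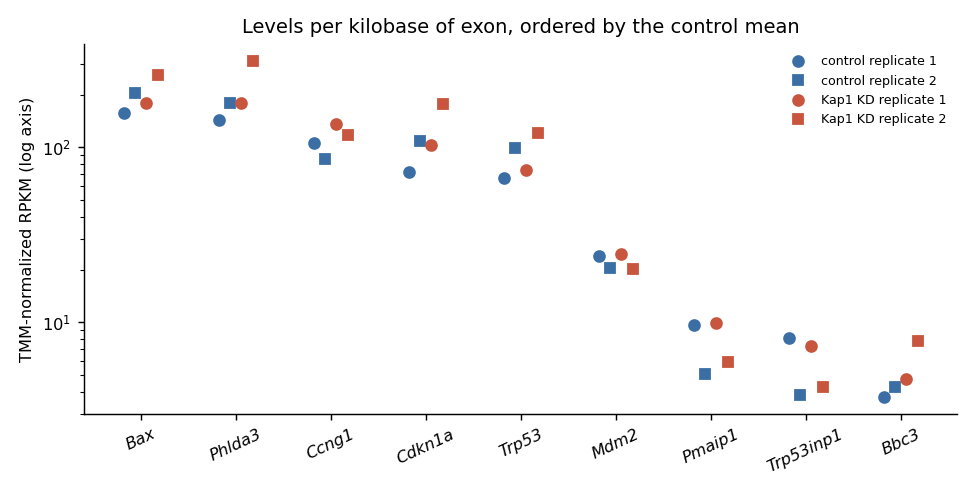
TMM-normalized RPKM (log y axis) of the 9 genes in each of the 4 libraries, ordered by the control mean (blue control, red Kap1 KD, circles replicate 1, squares replicate 2). The 2 most abundant genes (Bax, Phlda3), 3 intermediate ones and Mdm2 lie above the other 3, whose control libraries have 3.73 to 9.63 RPKM. Of these 3, Pmaip1 and Trp53inp1 are split by replicate number.

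The 4 libraries also give, for 3 of the genes, those among 8733 genes with at least 10 CPM that lay nearest in pattern, as the Euclidean distance of the 4 centred log2 values. Near to Trp53 was Fads3 (distance 0.019), to Mdm2 Gm6169 (0.012) and Utp20 (0.019), and to Cdkn1a Mapkapk3 (0.015) and Pdgfb (0.066). With 4 values and this many candidates, such closeness is a description only.

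The wider pathway was taken from fixed lists, chosen with earlier results of these data known, so that their counts and medians are a description only. Among 30 further genes listed as direct p53 targets, 19 were higher in Kap1 KD in both pairs and 7 lower in both (32.8% and 38.1% of all tested genes), and the median log2 fold change was 0.15. Both Kap1 KD libraries lay above both controls for 10 of them and below for 1 (9.69% and 10.6% of all tested genes). None passed the test without the replicate block, and Btg2 and Fas had an unadjusted p under 0.05. With the block, 3 were called higher (Btg2, Dcxr and Fas) and 1 lower (Ddb2), where 4.46% of all tested genes were called. Btg2, an antiproliferative gene, was the highest of the list, with 35.6 and 48.6 CPM in the control and 66.8 and 96.3 in the Kap1 KD samples. Its log2 fold change was 0.95 (standard error 0.28), and the pair ratios, 0.91 and 0.99, were nearly equal. Fas, a death receptor named after its values were seen, had 6.77 and 7.78 CPM in the control and 11.3 and 13.3 in the Kap1 KD samples. Dcxr, a carbonyl reductase, followed Btg2 at a log2 fold change of 0.78 (standard error 0.47). At the other end of the list were Ddb2 and Sesn1. Ddb2, a sensor of ultraviolet damage in DNA, had 5.98 and 5.18 CPM in the control and 4.16 and 3.04 in the Kap1 KD samples, and shares 23.8% of its exonic bases with Acp2 on the opposite strand, so that its counts are uncertain. Sesn1, a stress-induced inhibitor of mTORC1, had a log2 fold change of -0.33 (standard error 0.38).

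Genes that act on p53 or MDM2 had a median log2 fold change of -0.09 over 24 genes. Of these, 6 were higher and 14 lower in both pairs (32.8% and 38.1% of all tested genes). Trim28 is one of the 14, and it was the lowest of the list at -2.48 (standard error 0.25). Sirt1, which deacetylates p53, followed at -0.41 (standard error 0.39). Ppp1r13l, an inhibitor of p53, and Setd7, which methylates it, were the highest at 0.48 (standard error 0.44) and 0.23 (standard error 0.19). Of 11 relatives of the 9 genes, 9 were matched and 7 tested, with a median of -0.15. Mdm4, the partner and relative of MDM2, had 33.2 and 13.7 CPM in the control and 27.2 and 11.01 in the Kap1 KD samples, with pair ratios of -0.29 and -0.31 beside a larger difference between replicate numbers. Cdkn1b, which encodes the p21 relative p27, had 43.8 and 38.3 CPM in the control and 34.0 and 24.6 in the Kap1 KD samples, so that both Kap1 KD libraries lay below both controls. Trp53inp2 and Bak1 were the highest of the relatives, at 0.23 (standard error 0.30) and 0.19 (standard error 0.29).

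The rest of the BCL-2 family had a median of 0.00 over 10 tested genes. In both pairs 5 were higher and 4 lower (32.8% and 38.1% of all tested genes). Its extremes were Bak1 and Bad (0.18, standard error 0.29) above and Bcl2 (-0.38, standard error 0.31) and Bok (-0.21, standard error 0.48) below. Of these extremes, Bad, Bak1 and Bcl2 share 25.8%, 14.8% and 7.76% of their exonic bases with genes on the opposite strand. The 18 listed cell cycle genes that p53 is known to lower through p21 and the DREAM complex had a median of -0.03. Beside the same shares of all tested genes, 5 of the 18 were higher and 6 lower in both pairs. They lay between Cdc25c at -0.17 (standard error 0.24) and Bub1 at -0.14 (standard error 0.43) on the low side and Mybl2 at 0.23 (standard error 0.24) and E2f1 at 0.16 (standard error 0.19) on the high side. Among the regulators, the relatives, the BCL-2 family and the cell cycle genes, none passed the test without the block, which called 0% of all tested genes. With the block Trim28, the targeted gene, was the only one called in these lists, where 4.46% of all tested genes were called.

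**Figure D4:**
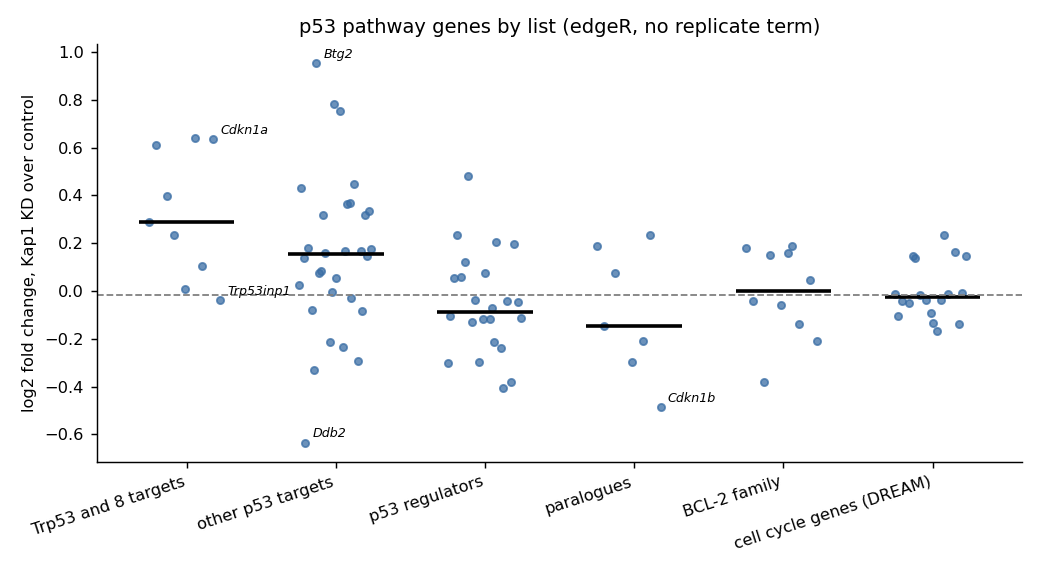
Log2 fold change of Kap1 KD over control (y axis) from edgeR without a replicate term, 1 point a gene, for the 9 genes and 5 lists; black bars are medians and the dashed line is the median of all tested genes (-0.02). The medians of the 9 genes (0.29) and of the further p53 targets (0.15) lie above that line, and Trim28, at -2.48, is in the median of the regulators but not drawn.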

How the data were processed

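The authors aligned single-end poly(A)+ reads to mm9 with TopHat2 2.0.11, set to report 1 alignment per read, and counted them per gene with HTSeq 0.6.1, versions per the submitters' processing notes. The deposited whole-number counts, not normalized, were analysed here. The small RNA tables were not used. The labels state a stranded TruSeq kit.

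Counts were filtered with filterByExpr (10 counts), scaled by TMM and tested with edgeR 4.0.16 (quasi-likelihood) in R 4.3.3 over all genes, with Benjamini-Hochberg adjustment. The standard error of a log2 fold change was taken from the F statistic, as its size over the root of F. RPKM used the exonic length of the GENCODE annotation of the same build, which gave symbols for 21806 of 21915 identifiers. The fits and the motif search were tested on simulated data. DESeq2 1.42.0, other scalings, no filter, the replicate block and leaving out each sample were alternatives. The 9 genes, the other lists and the rule for named genes (the 2 highest and 2 lowest of each list with a mean of at least 1 CPM; for Trp53, Mdm2 and Cdkn1a the 2 nearest patterns, of which 1 is not reported here) were chosen with earlier results of these data known.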

Additional observations from a re-analysis of the deposited data

How the results depend on the processing

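The replicate number, which only names the samples, was also used as a block. Deviations of same-numbered samples from their group means correlated at 0.81 across tested genes, which are not independent replicates. With the replicate block, edgeR called 631 genes (4.46%), and 2 of the 9, Cdkn1a (log2 fold change 0.61, adjusted p = 1.5e-23) and Bbc3 (0.61, adjusted p = 6.8e-06), were called higher, as were 2.06% of tested genes. Phlda3 lay just under 1.5-fold at 1.48-fold. With the block and no fold threshold, chosen after seeing the data, 3052 genes passed and 6 of the 9 as higher, Cdkn1a, Bbc3, Phlda3, Trp53 (0.22), Ccng1 (0.40) and Bax (0.28), while 10.1% of tested genes passed as higher. Mdm2, Pmaip1 and Trp53inp1 had adjusted p of 0.962, 0.352 and 0.999. This blocked edgeR fit has 1 residual degree of freedom and an infinite prior one. Its p-values thus rest on a spread shared across genes and do not measure a gene's own spread between the pairs. For Phlda3, with pair ratios of 0.33 and 0.81, its adjusted p was 1.7e-22. DESeq2 with the block called 232 genes, and again 2 of the 9, Cdkn1a and Bbc3 (adjusted p = 2.6e-10 and 0.0288), while 0.913% of the 11718 genes with an adjusted p were called higher; without it, DESeq2 called 3 genes. In the blocked DESeq2 fit Phlda3 (adjusted p = 0.119) and Trp53 (0.0615) did not pass on adjusted p alone, and the log2 fold change of Trp53inp1 turned to 0.011. With total counts in edgeR that of Mdm2 turned to -0.035. Leaving out 1 sample at a time, where the lone sample of a group is assumed to vary like the others, edgeR called 3 to 65 genes and 0 of the 9. The log2 fold change then ranged from -0.15 to 0.56 for Trp53 (below 0 without control replicate 1 or Kap1 KD replicate 2), -0.13 to 0.15 for Mdm2 and -0.32 to 0.64 for Pmaip1 (below 0 without control replicate 2 or Kap1 KD replicate 1), -0.00047 to 0.53 for Bax (below 0 without Kap1 KD replicate 2) and -0.49 to 0.60 for Trp53inp1 (above 0 without control replicate 1 or Kap1 KD replicate 2). Other scalings, no filter on low counts, no fold threshold without the block and a pseudocount of 1 left the counts of the 9 as given.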
